A study of Mus musculus with 16 samples.

Results

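The genes of the cytosolic ribosomal proteins were taken by symbol from a gene table of a mouse leukemia cell line: protein-coding genes whose symbol starts with Rpl or Rps and a number, with Rplp0, Rplp1, Rplp2 and Rpsa, and without Rps6k kinases, predicted genes and genes carrying a -ps symbol. This gave 86 of the 53801 genes in the table, 52 named for the large and 34 for the small subunit, and 83 of them were among the 13774 genes with enough counts to be tested. Of the 3 others, Rpl10l and Rpl39l had no count in any of 16 libraries, which allows at most 0.142 CPM (counts scaled to the size of the library) in a library, and Rpl3l had 37 counts in all libraries together. The symbol rule also took Rps19bp1, which is named for binding of RPS19 and encodes no ribosomal protein, and Rpl7l1, a distant relative of Rpl7. It left out Fau and Rack1, which encode ribosomal proteins under other names and were followed separately.

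All libraries came from a mouse MLL-AF9 AML line, acute myeloid leukemia cells driven by a fusion of MLL with AF9, grown with IL-3 and SCF. One population had been targeted by CRISPR-Cas9 at MCT4 (the gene Slc16a3), a carrier of lactate and protons out of the cell, and the control had received a non-targeting gRNA. Cas9 was induced with 4-OHT in both, and both were then kept at 20% or 2% oxygen, which gave control and MCT4-KO cells at each oxygen level with 4 libraries per group. The labels do not say whether replicates were separate cultures, nor whether a population descended from 1 clone, so each p-value speaks only of variation from library to library, part of which may be technical.

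Every cytosolic ribosome carries a set of ribosomal proteins bound to ribosomal RNA, nearly all in 1 copy, and their genes are among the most highly expressed of a growing cell. Their mRNAs belong to the TOP class: they begin with a C followed by a run of pyrimidines, through which LARP1 and mTOR signaling control their translation and stability. Loss of 1 copy of several of these genes causes Diamond-Blackfan anaemia in people, and a few genes have a second, diverged copy (Rps27l beside Rps27, Rpl22l1 beside Rpl22) whose product can take the place of the first.

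Because the run of pyrimidines defines TOP mRNAs, the 20 bases on each side of the annotated start site are printed for members on which the results below turn, with the longest pyrimidine run in each 40-base window in capitals. They are RefSeq sequences of GRCm38.p6, read on the strand of the gene, and the start site is base 21.
Rps6: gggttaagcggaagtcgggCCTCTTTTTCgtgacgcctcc
Rps12: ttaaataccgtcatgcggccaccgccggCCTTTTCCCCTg
Rpl12: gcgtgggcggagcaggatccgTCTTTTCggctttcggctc
Rps27: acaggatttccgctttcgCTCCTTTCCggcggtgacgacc
Rps27l: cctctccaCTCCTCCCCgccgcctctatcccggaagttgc
Rpl22l1: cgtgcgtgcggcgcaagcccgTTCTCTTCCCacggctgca
Rps7: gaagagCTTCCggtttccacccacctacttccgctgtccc
Rpl7l1: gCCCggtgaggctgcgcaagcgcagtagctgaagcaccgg
Rps19bp1: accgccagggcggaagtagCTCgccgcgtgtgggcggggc

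The windows lie at chr4:86857348-86857387 (minus strand) for Rps6, chr10:23787190-23787229 (minus) for Rps12, chr2:32961692-32961731 (plus) for Rpl12 and chr3:90213629-90213668 (minus) for Rps27. Those of Rps27l, Rpl22l1 and Rps7 lie at chr9:66946066-66946105 (plus, the first of 2 starts on file), chr3:28805488-28805527 (plus) and chr12:28635934-28635973 (minus). Those of Rpl7l1 and Rps19bp1 lie at chr17:46782637-46782676 (minus) and chr15:80264287-80264326 (minus). A run of 10 pyrimidines began at the base before the start of Rps6 and 1 base after the start of Rpl22l1, while the windows of Rpl7l1 and Rps19bp1 held no run longer than 3. Whether the annotated starts are those used in these cells was not tested.

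RefSeq windows of 250 bases before to 50 bases after the start were on hand for 63 of the 83 tested members. A gene with more than 1 annotated start was counted if any of its windows held the letters. First, a stretch of 5 successive pyrimidines was searched on the strand of the gene only. Its first base had to lie at most 5 bases before or after the start base. Such a stretch was found for 47.6% of the 63 members, 31.6% of 9920 tested genes with a window and 30.0% of all 27025 gene symbols. The letters CTTTCC, searched on both strands, were found for 54.0% of these members, 30.1% of these tested genes and 29.3% of all symbols. CCGGAAG, a core that ETS factors bind, was found for 39.7% against 20.7% and 9.93%, and CTCGCGAG for 11.1% against 2.23% and 1.04%. AAGATGGC was found for 9.52% against 5.47% and 3.19%, and TATAAA for 11.1% against 8.68% and 15.7%, in the same order. These are counts of letters, not of bound sites.

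Slc16a3 followed its labels in every library. It lay between 184 and 235 CPM in control cells and between 70.4 and 94.7 CPM in MCT4-KO cells at 20% oxygen, and between 789 and 844 CPM and between 358 and 370.3 CPM at 2% oxygen. The log2 fold change of the knockout was -1.39 ± 0.076 (SE, edgeR adjusted p = 5.1e-10) at 20% and -1.15 ± 0.072 (adjusted p = 8.46e-10) at 2% oxygen. The marker lists of every cell type moved with oxygen. All 12 myeloid markers were detected in every group, at 3857 to 4135 summed CPM at 20% oxygen and 6265 to 6866 CPM at 2%. The 6 stromal or endothelial markers, 2 of them at 0, went from 180.4 to 188 CPM up to 262 to 303 CPM. The 5 T or natural killer markers, 2 or 3 at 0, went from 2.95 to 5.73 CPM up to 11.5 to 15.3 CPM, and the 6 erythroid markers, 1 or 2 at 0, from 1.43 to 2.40 CPM up to 3.15 to 5.14 CPM. The 4 B cell markers, 1 or 2 at 0, went from 32.4 to 36.3 CPM down to 18.9 to 23.6 CPM. Mitochondrially encoded genes took 0.750% ± 0.18 and 0.720% ± 0.067 (SD, n = 4) of the counts in control and MCT4-KO cells at 20% oxygen, and 0.298% ± 0.044 and 0.379% ± 0.036 at 2%. Their part in the results was not tested.

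The rows of the 86 members together took between 8.67% and 11.55% of the counts of a library. Their share of all counts was 9.48% ± 0.44 (SD, n = 4) in control cells and 9.14% ± 0.35 in MCT4-KO cells at 20% oxygen, and 10.9% ± 0.48 and 9.45% ± 0.088 at 2% oxygen. In control cells the 4 libraries at 2% oxygen (10.43% to 11.55%) all lay above those at 20% (9.06% to 9.87%). In MCT4-KO cells the libraries at 2% (9.39% to 9.58%) overlapped those at 20% (8.67% to 9.44%), and the groups did not separate. Replicate 4 of the control cells at 2% oxygen had the highest share of all 16 libraries.

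**Figure D1:**
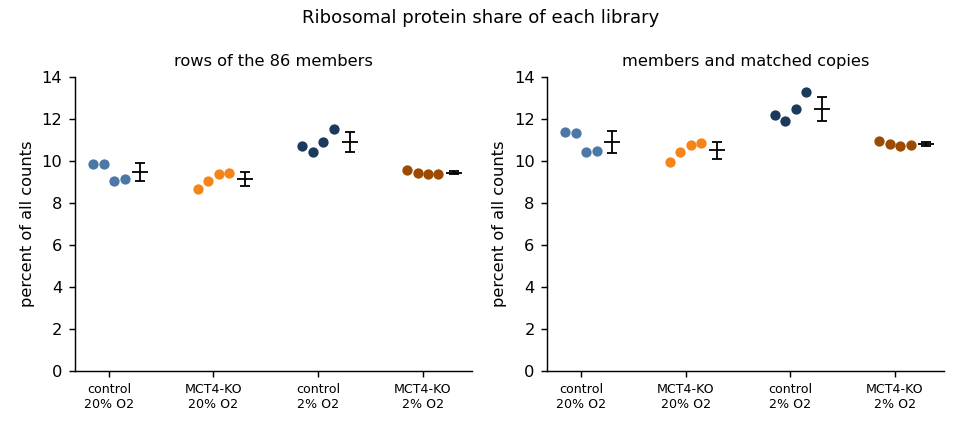
Percent of all counts in each library taken by the rows of the 86 members (left) and by members with the rows of matched copies (right); points are the 4 libraries of a group, and the bar gives mean and SD. Control cells at 2% oxygen stand highest in both panels (10.9% and 12.47% on average), and MCT4-KO cells at 2% oxygen lie within the range of the 20% groups.

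Levels of different genes are given per kb of coding sequence. In control cells at 20% oxygen Rpl41, the shortest ribosomal protein, stood highest at 17462 CPM per kb, followed by Rplp1 of the ribosomal stalk at 4700.0 and Rpl13a at 4689. The annotated transcript of Rpl41 has 437 bases, of which 75 are coding, so this measure raises it. Per kb of the whole transcript Rpl41 lay below Rplp1. At the low end were Rps27rt at 58.7, Rpl5 at 64.2, Rps19bp1 at 65.0 and Rps12 at 73.8 CPM per kb, although Rpl5 and Rps12 encode core ribosomal proteins.

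Processed pseudogenes, which are cDNA copies of mRNAs scattered in the genome, are very numerous for this family. Of the 86 members, 77 had at least 1 annotated gene elsewhere whose transcript matched at least 95% of the bases over at least 80% of the coding sequence, 550 such copies in all. The copies' own entries in the table held 12.8% of the family's reads. They held over 10% of the reads of 24 members and over 50% of the reads of 7 members, and less than 1% for 52 members.

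For those 7 members the entry of a copy whose matched coding sequence was 100% identical was the larger one. Rps12-ps3, on chromosome 19, averaged 1008 ± 30.8 CPM (SD, n = 4) in control cells at 20% oxygen, where Rps12 had 29.2 ± 1.9 CPM, and copies held 97.9% of the reads of Rps12. Gm15500 on chromosome 7 held most of the 97.6% of Rpl5 reads found in copies, and Gm10275 on chromosome 10 most of the 95.5% of Rpl12. The shares were 91.0% for Rpl27, 59.6% for Rpl27a, 57.2% for Rps23 and 50.2% for Rpl15. The values of these 7 members are therefore uncertain. Where adding the copies' counts changed the call or the sign of a value named for 1 of them, the second value is given too. Rps27rt, whose coding sequence is 100% identical to that of Rps27, had no matched copy to add, and its values are uncertain as well.

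Loss of MCT4 at 20% oxygen left most of the family without a called change. Of the 83 members 5 fell and 0 rose (edgeR, adjusted p under 0.05), against 4.8% of all tested genes called lower and 4.96% called higher. With an unadjusted p under 0.05 in edgeR, 29 were lower and 0 higher. At the adjusted threshold DESeq2 called 9 lower and limma-voom 7, and both called 0 higher. The log2 fold change was negative in 81 members, with a median of -0.07 where the median of all tested genes was -0.01. These 5 were Rpl12 (-0.26 ± 0.059 SE, adjusted p = 0.00727), Rpl36al (-0.19 ± 0.044, adjusted p = 0.00652), Rps29 (-0.19 ± 0.056, adjusted p = 0.0363), Rps7 (-0.18 ± 0.055, adjusted p = 0.0436) and Rps24 (-0.11 ± 0.034, adjusted p = 0.0458), all from edgeR's quasi-likelihood test. Of the 16 fits that left out 1 library, the call was lost for Rps24 in 14, for Rps7 in 11 and for Rps29 in 6.

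Only Rpl12 and Rpl36al had control and MCT4-KO libraries that did not overlap, both lower in MCT4-KO cells, where 6.89% of all tested genes were lower and 7.68% higher without overlap. Rpl36al, a second gene for the protein that Rpl36a encodes, stood at 506, 506, 460 and 441 CPM in control cells and at 403, 411, 419 and 439 CPM in MCT4-KO cells. The call of Rpl12 was lost when its copies were added (-0.08, edgeR adjusted p = 0.32). The count of 5 depended on single libraries: without control replicate 4 at 20% oxygen 14 members fell, and without control replicate 4 at 2% oxygen, a library of neither group, 9 fell. It was 2 without control replicate 1 or 2, or without MCT4-KO replicate 1 or 3, at 20% oxygen.

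To see which members moved apart from their family, the libraries were scaled by the median ratio of the members rather than of all genes, and a member was said to depart where its adjusted p was then under 0.05. At 20% oxygen Rpl36al departed downward by -0.12 ± 0.031 (edgeR adjusted p = 0.0236) and Rps2, a small subunit protein, upward by 0.14 ± 0.040 (adjusted p = 0.0335). On the same scale 1.58% of all tested genes were called lower and 7.99% higher. The departures of Rpl36al and Rps2 were lost in 4 and 6 of the 16 fits that left out 1 library.

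At 2% oxygen the knockout lowered nearly the whole family by a small amount. Of the 83 members 70 fell and 1 rose, against 19.1% of all tested genes called lower and 19.4% called higher. The median log2 fold change was -0.23, where that of all tested genes was -0.00, and the middle 50% of members lay between -0.28 and -0.18. Control and MCT4-KO libraries did not overlap for 71 members, 70 of them lower in MCT4-KO cells, against 18.5% of all tested genes lower and 18.5% higher without overlap. In the large subunit 40 of 49 members fell and in the small subunit 30 of 34. In bulk RNA, fewer cells of a kind and less RNA per cell cannot be told apart, and with no spike-in described all levels are relative to the library.

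The stalk proteins Rplp0, Rplp1 and Rplp2, which recruit the elongation factors to the ribosome, fell too. Rplp0 stood at 5744, 5590, 5800 and 5958 CPM in control cells and at 4872, 4763, 4761 and 4653 CPM in MCT4-KO cells at 2% oxygen. Each MCT4-KO library lay below every control library, with a log2 fold change of -0.28 ± 0.042 (edgeR adjusted p = 3.22e-05). Rplp1 fell by 0.25 and Rplp2 by 0.23 on the log2 scale. With Rpl12, which anchors the stalk, 4 of 4 listed proteins of this part of the ribosome fell. Of all tested genes 19.1% were called lower, and of the 83 tested members 84.3%.

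Rpl5 and Rpl11 travel with the 5S rRNA and bind MDM2 when ribosome assembly is disturbed. Rpl11 fell by 0.35 ± 0.079 (edgeR adjusted p = 0.00168), from 1617 ± 205 to 1271 ± 32 CPM (SD, n = 4). Rpl5 fell by 0.16 ± 0.050 in its own entry (adjusted p = 0.013) and by 0.26 with its copies (adjusted p = 2.03e-05). Without control replicate 4 at 2% oxygen the call of Rpl5's own entry was lost (-0.12, adjusted p = 0.0507). Rps6, the S6 kinase substrate, fell by 0.18 ± 0.032 (adjusted p = 0.000169), and Rpsa, a small subunit protein also known as a laminin receptor, by 0.31 ± 0.040 (adjusted p = 6.39e-06).

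Of 18 members in which variants cause Diamond-Blackfan anaemia, 15 fell and 0 rose with the knockout at 2% oxygen. Of all tested genes 19.1% were called lower and 19.4% higher, and 84.3% of the 83 tested members were called lower. The median of the 18 was -0.20, and 0 rose at an unadjusted p under 0.05 or by DESeq2 and limma-voom. Rps19, the member most often affected, went from 1128 ± 37 to 980.1 ± 18 CPM (SD, n = 4), a fall by 0.20 ± 0.038 on the log2 scale (edgeR adjusted p = 0.000302). At 20% oxygen 3 of the 18 fell, against 4.8% of all tested genes. These were Rps7, Rps24 and Rps29, whose calls depended on single libraries as given above. Under library-size scaling 1 of the 18 fell, where 572 of the 13774 tested genes fell.

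The lowest log2 fold change was that of Rps27rt, at -0.58 ± 0.15 (edgeR adjusted p = 0.00456). Rps7, a small subunit protein, and Rps14, a gene lost in a form of myelodysplastic syndrome, fell further than the family. Rps7 stood at 2820, 2753, 2872 and 3127 CPM in control cells and at 2174, 2123, 2100 and 2088 CPM in MCT4-KO cells, so the groups did not overlap. Its log2 fold change was -0.45 ± 0.055 (edgeR adjusted p = 3.42e-06), a departure of -0.21 from the family (adjusted p = 6.81e-05). Rps14 stood at 1976, 1922, 2045 and 2604 CPM in control cells and at 1602, 1537, 1519 and 1521 CPM in MCT4-KO cells. Control replicate 4 was by far the highest, and the log2 fold change of Rps14 was -0.47 ± 0.091 (adjusted p = 0.00041).

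In all, 8 members departed downward and 12 upward at 2% oxygen, where 3.8% of all tested genes were lower and 53.8% higher than the family. Besides Rps7 and Rps14 the largest downward departures were those of Rps27rt (-0.34), Rpl37a (-0.13) and Rpl27a (-0.12). All 3 were lost without control replicate 4 at 2% oxygen, at -0.21 (edgeR adjusted p = 0.159), -0.05 (adjusted p = 0.187) and -0.07 (adjusted p = 0.0716). Those of Rps27rt and Rpl37a were also lost without MCT4-KO replicate 2, 3 or 4 at 2% oxygen. That of Rps27rt was lost without control replicate 3 at 2% oxygen as well. With copies added that of Rpl27a was -0.06 (adjusted p = 0.122). The largest upward departures were those of Rps27l (0.48, adjusted p = 9.13e-08), Rpl7l1 (0.27, adjusted p = 2.15e-05), Rpl27 (0.21), Rps19bp1 (0.17) and Rpl29 (0.15). With the copies counted, Rpl27 no longer departed (0.12, adjusted p = 0.0533). The departure of Rps19bp1 was lost without control replicate 1 or 3 at 2% oxygen (edgeR adjusted p = 0.0655 and 0.0701).

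**Figure D2:**
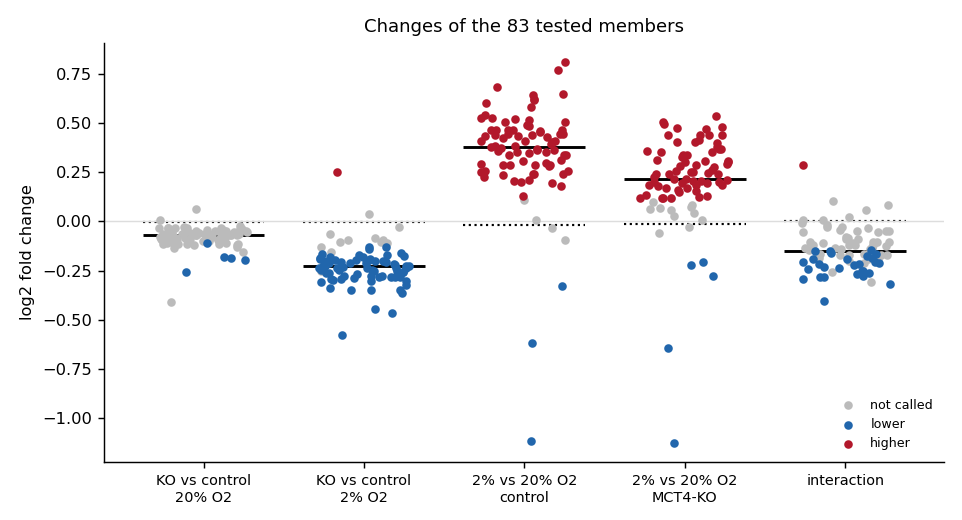
Log2 fold change of the 83 tested members in each comparison, with points coloured by the call. The solid line marks the members' median and the dotted line the median of all tested genes. The members' median is -0.07 and -0.23 for the knockout at 20% and 2% oxygen, 0.38 and 0.22 for low oxygen in control and MCT4-KO cells, and -0.15 for the interaction.

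Rps27l was the only member that rose in MCT4-KO cells at 2% oxygen. Its protein differs from that of Rps27 at few positions (96.4% identity), and Rps27l is known as a target of p53. It stood at 98.7, 100.2, 101 and 106 CPM in control cells and at 122, 120, 123 and 119 CPM in MCT4-KO cells, with no overlap. The log2 fold change was 0.25 ± 0.033 (edgeR adjusted p = 6.63e-06). At 20% oxygen it lay between 81.7 and 89.0 CPM in control cells and between 82.4 and 85.5 CPM in MCT4-KO cells, with a log2 fold change of -0.04 (adjusted p = 0.564).

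Rps27 went the other way at 2% oxygen. Its levels were 448, 437, 498 and 482 CPM in control cells and 363, 369, 361 and 395 CPM in MCT4-KO cells, a log2 fold change of -0.32 ± 0.061 (edgeR adjusted p = 0.000286). Per kb of coding sequence, Rps27 was at 1850 and 1477 CPM in the 2 groups and Rps27l at 403 and 479 CPM. Of 13 tested p53 targets 2 rose, Zmat3 (0.60) and Ccng1 (0.17), and 1 fell, Trp53inp1 (-0.28), in the same comparison, shares no higher than the 19.4% and 19.1% of all tested genes.

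Low oxygen raised most of the family in control cells, as counted relative to other genes. Of the 83 members 76 rose and 3 fell from 20% to 2% oxygen, where 38.7% of all tested genes were called higher and 39.6% lower. The median was 0.38 on the log2 scale, against -0.02 for all tested genes, and the libraries did not overlap for 75 members, 72 of them higher at 2%, against 34.9% of all tested genes higher and 35.3% lower without overlap. Scaled by library size alone, which moves the median of all tested genes to -0.22, 55 members rose and 6 fell, with a median of 0.18. Of the 13774 tested genes 3874 then rose and 7121 fell. The members' median then lay 0.40 above that of all genes, as it did with TMM scaling.

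Rpl37a, a zinc-finger protein of the large subunit, rose most. It stood at 585, 574, 517 and 521 CPM at 20% oxygen and at 903, 871, 921 and 1166 CPM at 2%, with replicate 4 highest and no overlap. The log2 fold change was 0.81 ± 0.070 (edgeR adjusted p = 1.06e-09). Rps2 (0.77), Rpl27a (0.69), Rpl7a (0.65) and Rps27rt (0.65) followed.

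Rplp0 rose by 0.39 ± 0.042 (edgeR adjusted p = 4.15e-08) and Rpl11 by 0.62 ± 0.079 (adjusted p = 4.61e-07). The own entry of Rpl5 rose by 0.13 ± 0.050 (adjusted p = 0.0244), and this sign was turned by library-size scaling (-0.08). Its call was lost without control replicate 3 or 4 at 20% oxygen (edgeR adjusted p = 0.101 and 0.0958). It was also lost without control replicate 4 at 2% oxygen (edgeR adjusted p = 0.108). Of the 18 members linked to Diamond-Blackfan anaemia 16 rose, against 38.7% of all tested genes and 91.6% of the 83 tested members. Under library-size scaling 8 rose and 1 fell, where 3874 of the 13774 tested genes rose and 7121 fell.

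The 3 members that fell in control cells at 2% oxygen were Rpl12, Rps19bp1 and Rpl7l1. Rpl12 was at 109, 114, 117 and 102 CPM at 20% oxygen and at 46.3, 46.7, 51.9 and 58.4 CPM at 2%, a log2 fold change of -1.12 ± 0.062 (edgeR adjusted p = 9.1e-13). Its identical copy Gm10275 moved in the other direction. Gm10275 averaged 1459 ± 90.5 CPM at 20% and 1971 ± 164 CPM at 2% oxygen (SD, n = 4), a log2 fold change of 0.43 ± 0.049 (adjusted p = 8.17e-08). Summed with its copies, Rpl12 rose by 0.37 (adjusted p = 5.73e-07), near the family's median.

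Rps12 and Rpl27 showed the same division. Rps12 had a log2 fold change of -0.09 (edgeR adjusted p = 0.168) in its own entry and 0.40 (adjusted p = 1.7e-07) with copies. For Rpl27 the values were -0.03 (adjusted p = 0.604) and 0.42 (adjusted p = 2.2e-08). How the reads of identical sequences were shared between entries was not tested.

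**Figure D3:**
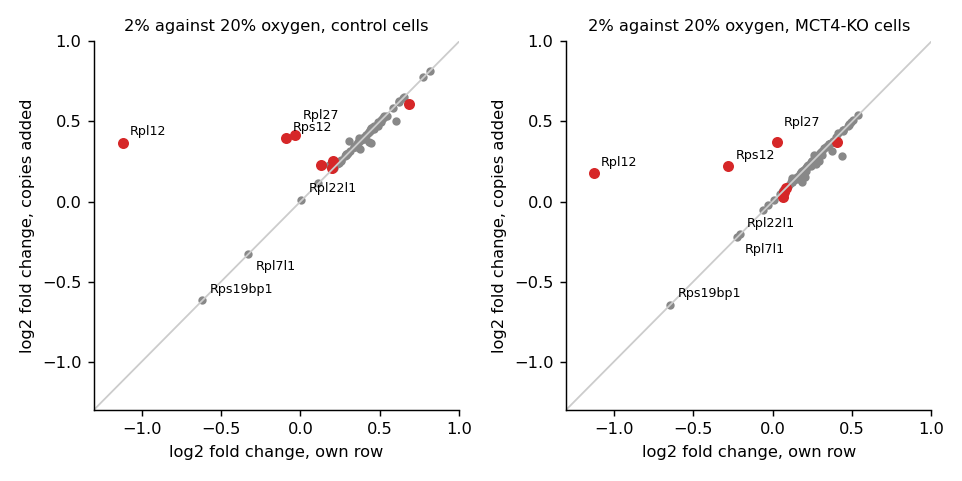
Log2 fold change of each tested member between 2% and 20% oxygen from its own entry (horizontal axis) and with the counts of matched copies added (vertical axis), in control (left) and MCT4-KO cells (right). Red points are the members with over 50% of their reads in copies; Rpl12 moves from -1.12 to 0.37 in control cells and from -1.13 to 0.18 in MCT4-KO cells.

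Rps19bp1 and Rpl7l1 fell with few or no reads in copies. Rpl7l1 stood at 227, 230, 214 and 211 CPM at 20% oxygen and at 173, 175, 177 and 177 CPM at 2%, with a log2 fold change of -0.33 ± 0.033 (edgeR adjusted p = 1.4e-08). Rps19bp1 went from 27.9 ± 2.2 to 18.2 ± 1.7 CPM (SD, n = 4), a log2 fold change of -0.62 ± 0.062 (adjusted p = 1.12e-08). Rps19bp1 had no matched copy, and that of Rpl7l1 held 2 counts. In the fit with the copies of all members added, Rpl7l1 was at -0.33 and Rps19bp1 at -0.61. Rpl7 itself, whose protein shares 40.7% of its residues with that of Rpl7l1, rose by 0.51 ± 0.029 (adjusted p = 1.46e-12).

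Relative to the family, 26 members departed downward and 23 upward in control cells, where 59.9% of all tested genes were lower and 20.3% higher than the family. The largest downward departures were those of Rpl12 (-1.5), Rps19bp1 (-0.99), Rpl7l1 (-0.70), Rps12 (-0.47) and Rpl27 (-0.41). With copies added those of Rpl12, Rps12 and Rpl27 were -0.02 (edgeR adjusted p = 0.529), 0.00 (adjusted p = 0.968) and 0.03 (adjusted p = 0.558), and the counts of departing members were 24 and 21. The largest upward departures were those of Rpl37a (0.43), Rps2 (0.40), Rpl27a (0.31), Rpl7a (0.27) and Rpl6 (0.25). When the family was scaled by its summed counts, 14 members departed upward.

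Rps27 and Rpl22l1 stayed behind the family without falling. Rps27 had a log2 fold change of 0.11 (edgeR adjusted p = 0.101), a departure of -0.26 (adjusted p = 3.71e-05). Rpl22l1 had a log2 fold change of 0.01 (adjusted p = 0.926), a departure of -0.37 (adjusted p = 4.69e-07), and it was called lower at -0.20 under library-size scaling. Rpl22, which acts in lymphocyte development, rose by 0.46 ± 0.047 (adjusted p = 1.35e-08).

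In MCT4-KO cells 66 members rose and 5 fell from 20% to 2% oxygen, where 37.7% of all tested genes were higher and 38.7% lower. The median was 0.22, against -0.01 for all tested genes, and libraries did not overlap for 74 members, 69 of them higher at 2%, against 35.9% of all tested genes higher and 36.5% lower without overlap. The count depended on the scaling: by library size alone 30 members rose and 12 fell, with a median of 0.04 where that of all tested genes was -0.19. At that scaling 3797 of the 13774 tested genes rose and 6942 fell. Rplp0 (0.13), Rpl4 (0.17) and Rps27a (0.12) rose with TMM scaling and were at -0.04, -0.01 and -0.06 with library-size scaling.

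Rps27l rose most in MCT4-KO cells, by 0.54 ± 0.033 (edgeR adjusted p = 5.27e-12). Rpl38 (0.51), Rpl37a (0.50), Rps2 (0.48) and Rps27rt (0.48) followed. The call of Rps27rt was lost without MCT4-KO replicate 1 at 2% oxygen (0.37, edgeR adjusted p = 0.0537). The 5 that fell were Rpl12 (-1.13), Rps19bp1 (-0.65), Rps12 (-0.28), Rpl7l1 (-0.22) and Rpl22l1 (-0.21). With copies added Rpl12 was at 0.18 (adjusted p = 0.00218) and Rps12 at 0.22 (adjusted p = 0.000268), so that 3 members fell. Rps7 and Rps14 were at -0.03 (adjusted p = 0.668) and 0.01 (adjusted p = 0.942).

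From the family 24 members departed downward and 28 upward, where 51.6% of all tested genes were lower and 24.7% higher. Rpl12 (-1.35), Rps19bp1 (-0.86), Rps12 (-0.50), Rpl7l1 (-0.44) and Rpl22l1 (-0.43) led the downward side. With copies added Rpl12 was at -0.05 (edgeR adjusted p = 0.187) and Rps12 at -0.00 (adjusted p = 0.932). On the upward side were Rps27l (0.32), Rpl38 (0.29), Rpl37a (0.28), Rps2 (0.26) and Rpl6 (0.25).

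The interaction of knockout and oxygen tests whether the knockout's effect differed between oxygen levels. It was lower for 28 members and higher for 1, against 11.3% and 11.6% of all tested genes, with a median of -0.15 where that of all tested genes was 0.00. Rps14 (-0.40 ± 0.13, edgeR adjusted p = 0.028), Rpl37a (-0.32 ± 0.098, adjusted p = 0.0236), Rps2 (-0.29), Rps3 (-0.28) and Rpl27a (-0.28) had the lowest values. The call was lost for Rps14 in 5 and for Rps3 in 6 of the 16 fits that left out 1 library. Rplp0 had -0.25 ± 0.059 (adjusted p = 0.00421), and Rpl11 just missed the threshold at -0.31 ± 0.11 (adjusted p = 0.0503).

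Rps27l was the 1 member with a higher interaction, at 0.29 ± 0.046 (edgeR adjusted p = 0.000213). Relative to the family 0 members had a lower and 6 a higher interaction, where 2.69% of all tested genes were lower and 25.6% higher. At an unadjusted p under 0.05 edgeR had 7 lower members, and at the adjusted threshold DESeq2 called 1 lower and limma-voom 0. The 6 were Rps27l (0.44, adjusted p = 6.62e-05), Rpl7l1 (0.26), Rpl36al (0.24, adjusted p = 0.00069), Rpl27 (0.22), Rpl38 (0.18) and Rps13 (0.17). That of Rpl38 was lost without control replicate 3 or MCT4-KO replicate 4 at 20% oxygen. It was also lost without control replicate 1 or MCT4-KO replicate 4 at 2% oxygen (edgeR adjusted p between 0.0549 and 0.0684). That of Rpl27 was lost without MCT4-KO replicate 2 at 20% or MCT4-KO replicate 3 at 2% oxygen. With copies added Rpl27 was at 0.11 (adjusted p = 0.247). Across the 83 members the interaction and the mean level had a Spearman correlation of -0.52, against 0.01 across 11939 tested genes with a coding transcript, both taken from the same libraries.

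Pairs of related genes were set side by side. Rpl36a and Rpl36al encode the identical protein (100% identity) from coding sequences that share 87.7% of their bases. At 2% oxygen the knockout lowered Rpl36a by 0.23 ± 0.052 (edgeR adjusted p = 0.00167), and Rpl36al had -0.11 ± 0.043 (adjusted p = 0.0511), which was called lower in 6 of the 16 fits that left out 1 library. Rpl22 and Rpl22l1 both fell in the same comparison, at -0.28 ± 0.047 (adjusted p = 8.11e-05) and -0.30 ± 0.061 (adjusted p = 0.000536), and parted under low oxygen as given above.

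Rpl7 fell by 0.23 ± 0.029 in MCT4-KO cells at 2% oxygen (edgeR adjusted p = 3.99e-06), and Rpl7l1 had 0.04 ± 0.033 (adjusted p = 0.399). Rpl7l1 and Rpl22l1 stood at 299 and 538 CPM per kb of coding sequence in control cells at 20% oxygen, against 1732 and 1303 CPM per kb for Rpl7 and Rpl22. The partners Rpl3l, Rpl10l and Rpl39l were not tested for lack of counts. Differences between 2 genes of a pair were not tested directly.

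**Figure D4:**
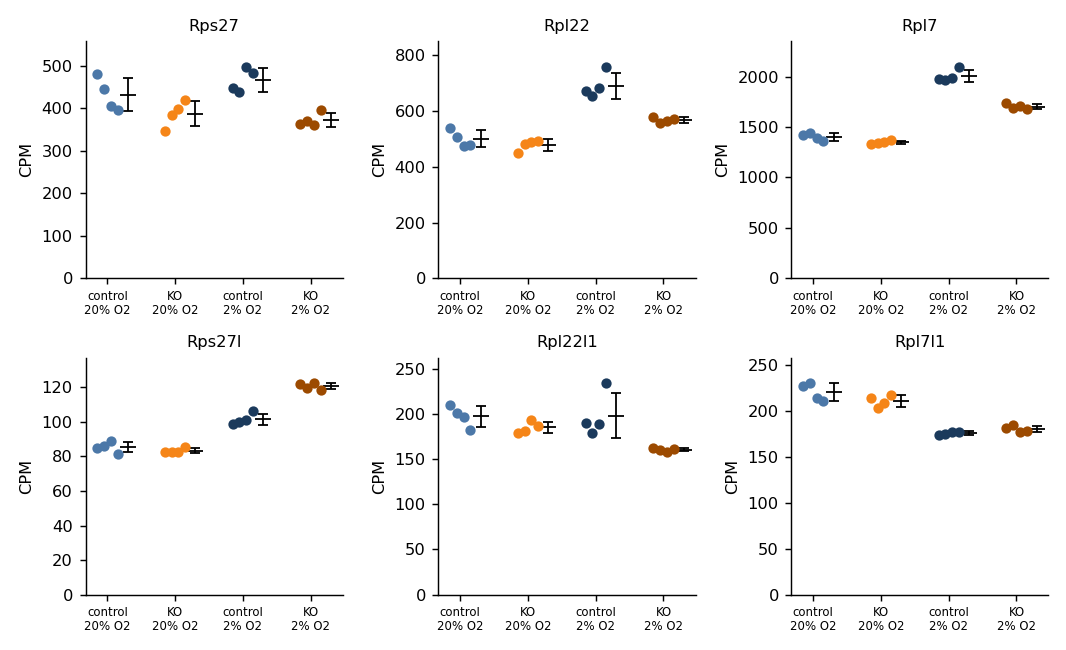
CPM of Rps27 and Rps27l, Rpl22 and Rpl22l1, and Rpl7 and Rpl7l1 by group; points are libraries and bars give mean and SD of 4. Rps27l is highest in MCT4-KO cells at 2% oxygen (119 to 123 CPM), where Rps27, Rpl22, Rpl22l1 and Rpl7 are below control cells at 2% oxygen.

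Lists of related genes, chosen by function, were read beside the family. Of 20 TOP mRNAs outside it, mostly translation factors, 16 fell and 0 rose with the knockout at 2% oxygen. Of all tested genes 19.1% were lower and 19.4% higher there. At 20% oxygen 1 of the 20 fell, against 4.8% of all tested genes. The number that rose at 2% was 0 at an unadjusted p under 0.05 and by DESeq2 and limma-voom. Eef1a1, the elongation factor that brings aminoacyl-tRNA to the ribosome, fell by 0.40 ± 0.035 (edgeR adjusted p = 6.56e-08), Tpt1 by 0.33 and Eef2 by 0.21. At 2% against 20% oxygen in control cells 17 rose and 2 fell with a median of 0.42. Of all tested genes 38.7% rose and 39.6% fell with TMM scaling. Under library-size scaling 13 rose and 4 fell with a median of 0.22, where 3874 of the 13774 tested genes rose and 7121 fell. Vim (1.25) and Eif3f (0.69) rose, and Eif3a (-0.79) and Eif3g (-0.48) fell. In MCT4-KO cells 13 rose and 3 fell, where 37.7% of all tested genes rose and 38.7% fell. Under library-size scaling 9 rose and 7 fell there, where 3797 of the 13774 tested genes rose and 6942 fell. A lower interaction was called for 11 of the list, against 11.3% of all tested genes. Rack1 and Fau, which this list also holds, had -0.31 and -0.15 with the knockout at 2% oxygen, and Rack1 was called lower while Fau was not (edgeR adjusted p = 0.0919).

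Dedicated chaperones escort single ribosomal proteins to the assembling ribosome. Of 11 listed, 9 fell and 1 rose at 2% oxygen in control cells, against 39.6% of all tested genes lower and 38.7% higher, with a median of -0.88. In MCT4-KO cells 9 fell and 1 rose, against 38.7% of all tested genes lower and 37.7% higher, with a median of -0.61. Ltv1 (-1.31), Rrs1 (-1.27) and Heatr3 (-1.12) fell most in control cells, and Aamp (0.81) rose. With the knockout at 2% oxygen 6 rose and 1 fell, against 19.4% and 19.1% of all tested genes. Heatr3, which carries RPL5 into the nucleus, rose by 0.53 ± 0.044 (edgeR adjusted p = 4.41e-08), Rrs1 by 0.46 and Ltv1 by 0.28, while Nap1l1, which also stands on the list of TOP mRNAs, fell by 0.21. At 20% oxygen 0 of 11 were called by edgeR, DESeq2 or limma-voom, and 1 was lower at an unadjusted p under 0.05 in edgeR.

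**Figure D5:**
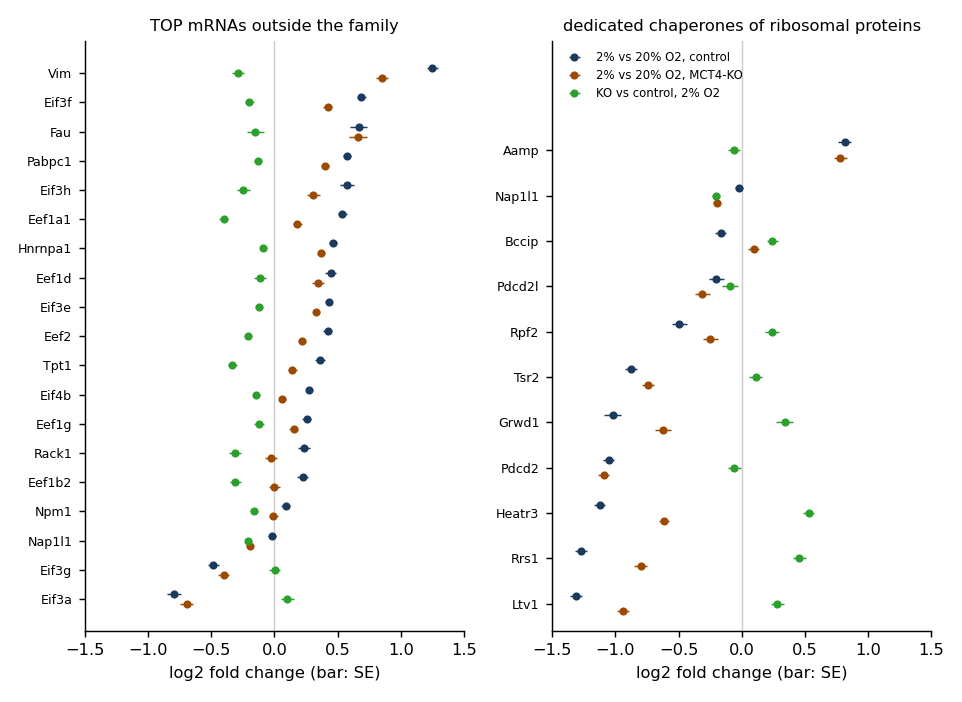
Log2 fold change with SE (edgeR, n = 4 libraries per group) of TOP mRNAs outside the family (all but 1 of the list) and of dedicated chaperones of ribosomal proteins, for the knockout at 2% oxygen and for low oxygen in control and MCT4-KO cells. Most TOP mRNAs lie below 0 with the knockout and above 0 at low oxygen, and most chaperones the other way round (Heatr3 at 0.53 and -1.12).

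Of 12 regulators of TOP mRNAs, 6 fell and 3 rose at 2% oxygen in control cells and 8 fell and 3 rose in MCT4-KO cells (9 and 1 in either under library-size scaling). The 6 and 3 lie near what 39.6% of all tested genes lower and 38.7% higher would give. In MCT4-KO cells 38.7% of all tested genes were lower and 37.7% higher. Under library-size scaling 7121 of the 13774 tested genes fell and 3874 rose in control cells. In MCT4-KO cells 6942 then fell and 3797 rose. Larp1, which binds the TOP sequence, fell by 0.80 ± 0.045 in control cells (edgeR adjusted p = 1.17e-12) and by 0.54 in MCT4-KO cells, and it rose by 0.34 ± 0.045 with the knockout at 2% oxygen (adjusted p = 8.88e-06). Rps6kb1, the S6 kinase, fell by 0.82 in control cells at 2% oxygen, and Eif4ebp2 rose by 0.49. With the knockout at 2% oxygen 4 of the 12 rose and 3 fell, where 19.4% of all tested genes rose and 19.1% fell. Of the 13 p53 targets 7 rose and 5 fell at 2% oxygen in control cells, with Cdkn1a at 1.26, against 38.7% and 39.6% of all tested genes. Under library-size scaling 3 of the 13 rose and 6 fell.

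The changes were also set beside the letters at the start. The 30 members with such a stretch of pyrimidines at the start had a median of 0.30 at 2% oxygen in control cells and the 33 without one 0.42, and with the knockout at 2% oxygen the medians were -0.22 and -0.23. Members whose gene hosts an annotated small nucleolar RNA (30) had a median of 0.45 at low oxygen in control cells and the other 53 had 0.35. These medians are descriptions without a test.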

How the data were processed

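RNA sequencing of poly(A) RNA was deposited as 1 table for 16 libraries. The authors deposited expected counts for each gene with no normalization. Of the values 10.1% had a fractional part, and counts were rounded to whole numbers for the tests. HISAT2, RSEM and the build mm10 are named, per the submitters' processing notes. The annotation release was not given in the sources used here, nor were versions or the strand setting, so reads of overlapping genes and of close copies may sit in the wrong entry. Identifiers were named from GENCODE vM21, which matched 53706 of 53801. Library totals were 21192179 to 28871459.

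Genes were kept by filterByExpr of edgeR 4.0.16 (R 4.3.3), leaving 13774, libraries were scaled by TMM, and a quasi-likelihood fit over all 16 libraries was used (12 residual degrees of freedom and a biological coefficient of variation of 4.61%). The 5 comparisons were the knockout at each oxygen level, oxygen in either genotype, and the interaction. Calls are adjusted p under 0.05, with Benjamini-Hochberg adjustment across the tested genes. CPM are counts scaled to the effective (TMM) library size. For departures from the family the scaling factor was the median ratio of the members' counts in a library to their geometric means, and all genes were refitted. SE is the absolute log2 fold change divided by the root of the F statistic. A library total sets the precision, and the limit given for a count of 0 (3 counts) covers counting error only.

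Copies were found with BLAST+ 2.17.0 (at least 95% identity over at least 80% of the coding sequence), and their counts were added to the member's before a refit. This alternative was chosen after seeing the data. Other alternatives were DESeq2 size factors, library-size scaling, other filters, DESeq2 1.42.0, limma-voom (3.58.1), a fit limited to the 2 groups compared, the replicate number as a block, named pseudogenes added, the family's summed counts as scale, and each library left out. Scripts were tested on simulated data.

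The members and lists were chosen with earlier results of these data known. Named members were the stalk, 5S and paired genes of fixed lists, Rpl3, Rpl4, Rps6, Rpsa, Rps27a and Rps19bp1, the 5 largest called rises, falls and departures per comparison, up to 3 called genes per list, and members at the ends of a range. Rps19, Rps13 and the 7 members with most reads in copies were named after their values were seen. A gene of the TOP list is counted with the list and not reported here by itself. Start sequences are RefSeq's on GRCm38.p6 and were matched by symbol for 63 tested members.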

Additional observations from a re-analysis of the deposited data

Results flagged for a closer look

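Groups of 4 libraries were formed for each named member and for the family's share of counts, all from the same 16 libraries. Chance alone would give an outlying library in about 1 in 20 groups if the groups were independent, which these are not. In 12 of 156 such groups, 1 library stood apart from the others by Dixon's criterion. Of these, 5 were control replicate 4 at 2% oxygen, which was high for Rpl37a (1170 CPM), Rpl4 (4080 CPM), Rpl6 (2770 CPM), Rpl7 (2100 CPM) and Rps3 (3130 CPM) and which also had the highest family share. Control replicate 1 at 20% oxygen was low for Rpl10 (718 CPM), and MCT4-KO replicate 1 at 20% oxygen was high for it (786 CPM). Control replicate 4 at 20% oxygen was low for Rpl38 (251 CPM). MCT4-KO replicate 1 at 20% oxygen was low for Rps24 (834 CPM), and MCT4-KO replicate 4 at 20% oxygen was high for Rps27l (85.5 CPM). At 2% oxygen MCT4-KO replicate 4 was low for Rpl29 (931 CPM) and MCT4-KO replicate 1 high for Rpl37a (784 CPM).

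The effect of the knockout differed between the oxygen levels, by edgeR's interaction term, in the lower direction for 28 members and in the higher direction for 1. Of all tested genes 11.3% were called in the lower and 11.6% in the higher direction. Among the named members the interaction on the log2 scale was -0.40 for Rps14, -0.32 for Rpl37a, -0.29 for Rps2, -0.28 for Rps3 and -0.28 for Rpl27a. It was -0.26 for Rpsa, -0.25 for Rplp0, -0.24 for Rps4x, -0.22 for Rpl22, -0.19 for Rpl4, -0.18 for Rpl7 and -0.16 for Rpl3. Rps27l had 0.29.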

How the results depend on the processing

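Of 1569 values of named members under other settings, 1494 were called in the same direction as before or were called in neither fit. Another 33 were no longer called, 29 were newly called and 13 changed sign. For values called in neither fit the sign was not compared. With library-size scaling the members called were 3 lower for the knockout at 20% oxygen and 2 higher for the interaction. Of the 13774 tested genes 572 were then lower for that knockout comparison and 1940 higher for the interaction. For oxygen in control cells 6 were lower, with a median of 0.18, where 7121 of the 13774 tested genes were lower. For oxygen in MCT4-KO cells 12 were lower and 30 higher, with a median of 0.039, where 6942 tested genes were lower and 3797 higher. Signs turned for Rpl5 (-0.0772) and Rpl22l1 (-0.20) in control cells and for Rplp0 (-0.0447), Rpl4 (-0.00623) and Rps27a (-0.0581) in MCT4-KO cells. For the knockout at 20% oxygen the DESeq2 Wald test called 9 lower and the fit of the compared groups only 3. With copies added 3 members fell at low oxygen in MCT4-KO cells. In control cells Rpl12 (0.37), Rps12 (0.40) and Rpl27 (0.42, or 0.41 with named pseudogenes alone) then changed sign, as did the departures of Rps12 (0.0019) and Rpl27 (0.0325), and in MCT4-KO cells Rpl12 (0.18) and Rps12 (0.22). Scaling the family by its summed counts gave 2 downward departures for the knockout at 20% oxygen and 14 upward ones for oxygen in control cells. The stricter filter gave 2 downward departures for the knockout at 20% oxygen and 1 for the interaction. The cause of these shifts was not tested beyond what each setting changes by construction.

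Same-numbered libraries deviated together in 1 of 24 pairs (correlation over 0.1; range -0.06 to 0.12), and a library correlated best with its own number in 12 of 48 cases, so the numbers were not taken as pairs. With the replicate block 2 members were lower for the knockout at 20% oxygen, with 0 downward and 0 upward departures, 5 departed downward for the knockout at 2% oxygen and 3 upward in the interaction. Leaving out 1 library at a time, members called lower for the knockout at 20% oxygen ranged from 2 to 14, downward departures there from 0 to 3 and upward ones from 0 to 1. Downward departures ranged from 4 to 8 for the knockout at 2% oxygen (5 without control replicate 4 or MCT4-KO replicate 2 or 4, and 4 without MCT4-KO replicate 3, all at 2%) and from 0 to 2 for the interaction. Of 2912 values of single members in these fits 76 were no longer called, 22 were newly called and 0 called values were reversed.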
